A study of Mus musculus with 17 samples.

Results

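The genes described here encode 10 transcriptional regulators of the lung epithelial lineage, namely Nkx2-1, Foxa1, Foxa2, Gata6, Cebpa, Klf5, Irx1, Irx2, Irx3 and Tle1. They were chosen by name, with earlier results of these data known. Each symbol was matched to its Ensembl mouse gene ID in the deposited count tables, so they are 10 of the 43430 gene IDs counted. All 10 passed the filter on low counts in both experiments. RNA sequencing had been done on alveolar type 2 (AT2) cells, the surfactant-making cells of the alveolus, sorted by flow cytometry from C57BL/6J mice aged 2 months. The series concerns ISRIB, an inhibitor of the integrated stress response, and pulmonary fibrosis, and it holds 2 experiments that used different library kits. In the ISRIB experiment, naive mice received ISRIB (4 libraries) or vehicle (4 libraries, titled saline) and cells were taken 24 h later, with poly(A) libraries made from 3 ng of RNA by the NEBNext Ultra I kit. In the bleomycin experiment, cells came from mice 14 days after bleomycin, an agent used to injure the lung and bring on fibrosis (5 libraries), or from naive mice (4 libraries), with total-RNA libraries made from 0.35 ng by SMARTer Stranded Total RNA-Seq v2 (Pico input). All 9 of these libraries, naive and bleomycin alike, carry the treatment label vehicle and titles that say saline. No genotype beyond the strain, and no dose, route or sex, is given in the labels. Whether each library came from 1 mouse is not stated, so the p-values below measure the spread between libraries, which may be technical.

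Libraries of the ISRIB experiment held 10493574 to 15727139 counted reads and those of the bleomycin experiment 3295257 to 6333166. Ribosomal RNA-like genes took 0.314% to 0.459% of the reads in the first and 15.7% to 29.2% in the second. All 7 AT2 identity markers (Sftpc, Sftpb, Abca3, Lamp3, Slc34a2, Epcam and Cdh1) were detected in every library, with summed levels of 142879 to 156824 counts per 1000000 (CPM) in the poly(A) libraries, 60970 to 68343 CPM in the naive and 36958 to 63411 CPM in the bleomycin libraries. Bleomycin 4 stood apart from the other total-RNA libraries on the second principal component, which held 17.3% of the variance. On that of the poly(A) libraries (19.2%), ISRIB 1 and 3 (-10.2 and -17.9) lay apart from ISRIB 2 and 4 (7.52 and 4.52). Their summed AT2 markers were 156197 and 156089 CPM in ISRIB 1 and 3 and 142879 and 144296 CPM in ISRIB 2 and 4. The kits were never compared in a test, and values from both are given only side by side.

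As background, Nkx2-1 is the homeodomain factor that sets lung fate in the foregut and keeps surfactant genes active in AT2 cells. Foxa1 and Foxa2 are forkhead factors that open chromatin, Gata6 is a zinc finger factor, and Cebpa is a leucine zipper factor. All 4 act with Nkx2-1 on alveolar genes. Klf5 is a Krüppel-like factor of the alveolar epithelium, Irx1, Irx2 and Irx3 are Iroquois homeodomain factors, and Tle1 is a Groucho family corepressor that binds DNA only through other factors.

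Levels of different genes were compared per length, as CPM divided by the kilobases of annotated exon. In vehicle libraries Cebpa had the highest level, with 334 ± 18.0 CPM per kilobase (SD, n = 4). Irx1 followed with 257 ± 34.2 and Nkx2-1 with 215 ± 14.4 CPM per kilobase, and the ranges of these 2 genes overlapped. Then came Irx3 (119 ± 13.5), Irx2 (83.2 ± 8.78), Foxa2 (45.2 ± 1.66), Foxa1 (40.5 ± 1.94), Gata6 (14.3 ± 0.94), Klf5 (12.3 ± 0.86) and Tle1 (5.61 ± 0.32), all in CPM per kilobase. In naive libraries of the total-RNA kit the order began with Irx1 at 183 ± 20.04, Nkx2-1 at 131 ± 5.03 and Cebpa at 100.4 ± 4.32 CPM per kilobase (SD, n = 4). Irx3 (75.9 ± 5.89) and Irx2 (66.0 ± 6.17) overlapped each other, and so did Gata6 (6.79 ± 1.03) and Tle1 (6.59 ± 0.65) at the lower end. Between them lay Foxa2 (31.2 ± 2.35), Foxa1 (25.7 ± 1.89) and Klf5 (11.2 ± 1.24). In both kits the 3 Iroquois genes, Nkx2-1 and Cebpa therefore lay above the forkhead genes, and Gata6, Klf5 and Tle1 below them.

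**Figure D1:**
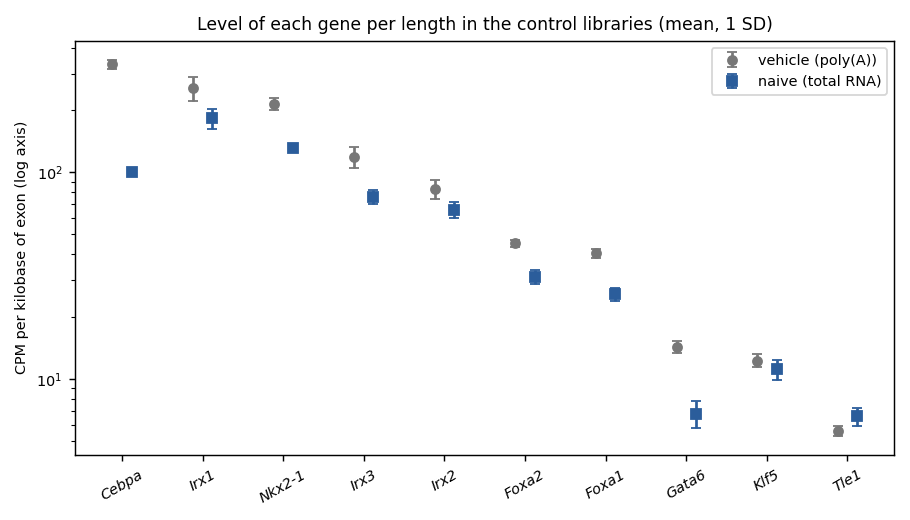
Mean level of each gene in the control libraries, in CPM per kilobase of exon on a log axis, with circles for vehicle (poly(A), n = 4), squares for naive (total RNA, n = 4) and bars of 1 SD. Cebpa is highest in the 4 vehicle libraries (mean 334) and Irx1 in the 4 naive libraries (mean 183). Tle1 has the lowest mean in both sets, though its range overlaps that of Gata6 in the naive libraries.

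After ISRIB, 3 of the 10 genes rose and none fell at an adjusted p under 0.05 (edgeR quasi-likelihood F test, Benjamini-Hochberg over 12054 genes). Those that rose were Tle1, Irx1 and Irx2. In such bulk samples, more cells with a gene and more RNA of it per cell cannot be told apart. The same holds for fewer cells and less RNA per cell where genes fell after bleomycin. Over all genes tested, 2.20% were called in either direction and 1.10% were called higher. No member was called lower by edgeR, DESeq2 or limma-voom. At an unadjusted p under 0.05 in edgeR, 2 members, Gata6 and Cebpa, were lower. In either direction, 5 of the 10 members and 1934 of the 12054 genes tested had such a p. The members' median log2 fold change was -0.02, against -0.0001 for all genes tested. Vehicle and ISRIB libraries did not overlap for 4 of 10 members, namely Tle1, Irx1, Irx2 and Gata6, and for 8.65% of all genes tested (4.26% higher and 4.39% lower).

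Tle1 (ENSMUSG00000008305, GRCm38 chromosome 4, 72117142 to 72200919, minus strand) stood at 46.2, 46.8, 50.9 and 51.7 CPM in vehicle 1 to 4 and at 63.7, 73.6, 77.6 and 80.6 CPM in ISRIB 1 to 4. The 2 groups did not overlap, and ISRIB 1 was the nearest to the controls. The mean went from 48.9 ± 2.81 to 73.9 ± 7.37 CPM (SD, n = 4 each), 1.51-fold higher (log2 fold change 0.59, SE 0.07, edgeR adjusted p = 8.92e-04). It ranked 5 by p among the 12054 genes. In length Tle1 has the most annotated exon of the 10, at 8711 bases, and 2.84% of these lie opposite exons of Gm11250, a gene model with 0 to 1 counts per library.

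Irx1 (ENSMUSG00000060969, chromosome 13, 71957921 to 71963723, minus strand) was read at 588, 639, 665 and 798 CPM in vehicle 1 to 4 and at 921, 976, 991 and 923 CPM in ISRIB 1 to 4. The lowest ISRIB library was above vehicle 4, the highest of the controls. Mean levels were 672 ± 89.7 and 953 ± 36.2 CPM (SD, n = 4 each), 1.42-fold higher after ISRIB (log2 fold change 0.50, SE 0.07, edgeR adjusted p = 0.00309). The coefficient of variation was 13.3% among vehicle and 3.80% among ISRIB libraries. Tle1 and Irx1 were called under all 15 alternative settings, including those that left out each library in turn.

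Irx2 (ENSMUSG00000001504, chromosome 13, 72628820 to 72634198, plus strand) lies 665096 bases from Irx1. Its level was 234, 301, 270.2 and 287 CPM in vehicle 1 to 4 and 353, 327, 380.1 and 310.5 CPM in ISRIB 1 to 4. All ISRIB libraries were higher, by a narrow gap between vehicle 2 and ISRIB 4. Means were 273 ± 28.8 and 343 ± 30.5 CPM (SD, n = 4 each), and Irx2 rose by 0.33 on the log2 scale (SE 0.08, edgeR adjusted p = 0.0292). The adjusted p passed 0.05 when vehicle 1 (0.102), vehicle 3 (0.0592), ISRIB 1 (0.0587) or ISRIB 3 (0.0831) was left out. Irx3 (ENSMUSG00000031734, chromosome 8, 91798525 to 91802067, minus strand) had 319, 364, 349.9 and 279.7 CPM in vehicle 1 to 4 and 292, 338, 296 and 299 CPM in ISRIB 1 to 4. The ISRIB range lay inside the vehicle range, and the log2 fold change was -0.10 (95% interval -0.24 to 0.04, edgeR adjusted p = 0.545). For Irx3, 4.49% of the exon bases lie opposite exons of Irx3os, which had 97 to 175 counts in these libraries.

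The bases before the start site are shown for the members among those called in either experiment that had a RefSeq window. Of the 10 members, 7 were found in that table (GRCm38.p6), and Gata6, Klf5 and Irx1 were not matched. For Irx2 the 250 bases are chr13:72628570-72628819 on the plus strand, and for Tle1 they are chr4:72200894-72201143 on the minus strand, both written 5′ to 3′ with capitals marking a match to the Krüppel-like factor motif GGGNGTGG.
Irx2: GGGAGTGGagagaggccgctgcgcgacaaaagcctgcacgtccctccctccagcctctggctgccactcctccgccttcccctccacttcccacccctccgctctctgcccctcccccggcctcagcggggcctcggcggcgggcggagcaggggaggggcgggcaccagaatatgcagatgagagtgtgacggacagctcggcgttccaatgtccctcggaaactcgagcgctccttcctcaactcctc
Tle1: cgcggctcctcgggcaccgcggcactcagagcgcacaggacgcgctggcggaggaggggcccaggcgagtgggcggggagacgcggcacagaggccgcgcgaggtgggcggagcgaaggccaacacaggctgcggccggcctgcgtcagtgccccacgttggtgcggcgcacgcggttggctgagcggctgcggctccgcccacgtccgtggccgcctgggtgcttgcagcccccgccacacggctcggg
These windows are rich in G and C, at 68.4% with 19 CpG dinucleotides in Irx2 and 77.2% with 35 in Tle1. The median over 32851 windows of 27025 genes was 52.4% and 6 CpG. The match in the Irx2 window starts 250 bases before the start site, and none of the 8 motifs searched was found in the Tle1 window. The GENCODE model of Tle1 reaches 72200919, so the bases of its window nearest the RefSeq start lie inside that model. Searched on both strands, with each motif counted on its own where matches overlapped, the motifs and the share of all windows holding them were TGTTTAC for forkhead factors (3.17%), CAAGTG for NKX2-1 (11.6%), AGATAA for GATA factors (9.99%), TTGCNNAA for C/EBP factors (9.56%), GGGNGTGG for Krüppel-like factors (15.9%), ACATGT for Iroquois factors (4.58%), TGATGNAA for ATF4 with a C/EBP partner (3.45%) and GGAATG for TEAD factors (12.6%). A match describes letters only and shows no binding.

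**Figure D2:**
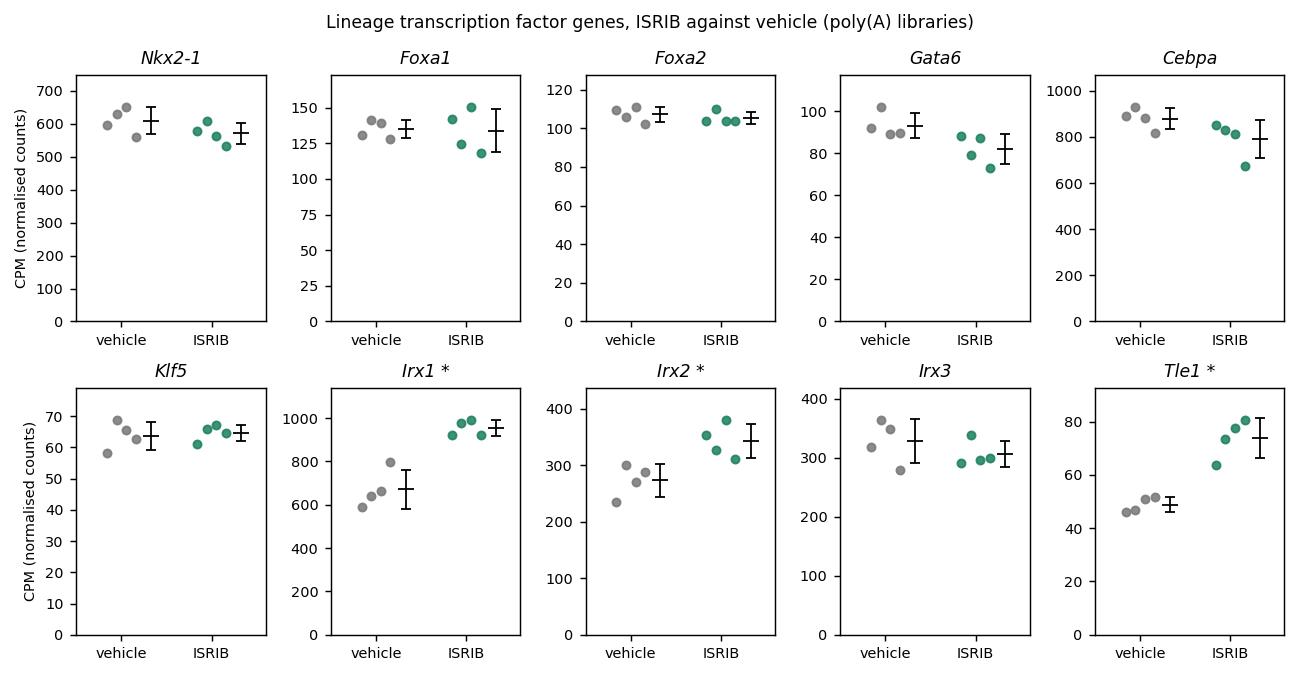
CPM of each of the 10 genes in the 4 vehicle and 4 ISRIB libraries, each panel with its own linear axis from 0, with a point for each library, the mean and 1 SD beside the points, and an asterisk for genes called at an adjusted p under 0.05. The ISRIB points lie wholly above the vehicle points for Tle1, Irx1 and Irx2 and wholly below them for Gata6.

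Of the remaining members, Gata6 was closest to a call. Gata6 (ENSMUSG00000005836, chromosome 18, 11052064 to 11085635, plus strand) had 92.0, 102, 89.0 and 89.7 CPM in vehicle 1 to 4 and 88.4, 79.2, 87.3 and 73.2 CPM in ISRIB 1 to 4. The groups did not overlap, but the highest ISRIB library and the lowest vehicle library were close. The log2 fold change was -0.18 (SE 0.07, 95% interval -0.31 to -0.05), with an unadjusted p of 0.0159 and an adjusted p of 0.189 in edgeR. Cebpa (ENSMUSG00000034957, chromosome 7, 35119293 to 35121928, plus strand) was at 889, 931, 883 and 816 CPM in vehicle 1 to 4 and at 854, 831, 811 and 672 CPM in ISRIB 1 to 4. These groups overlapped, with ISRIB 4 lowest, and the log2 fold change was -0.15 (SE 0.07, edgeR adjusted p = 0.289).

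Nkx2-1 (ENSMUSG00000001496, chromosome 12, 56531958 to 56536908, minus strand) was measured at 597, 631, 652 and 559 CPM in vehicle 1 to 4 and 579, 609.6, 564 and 533 CPM in ISRIB 1 to 4. The groups overlapped, and the interval of the log2 fold change was -0.21 to 0.02. Foxa1 (ENSMUSG00000035451, chromosome 12, 57540628 to 57546916, minus strand) lies 1003719 bases from Nkx2-1 and ranged from 128 to 141 CPM in vehicle and from 118 to 151 CPM in ISRIB libraries. Foxa2 (ENSMUSG00000037025, chromosome 2, 148042877 to 148046969, minus strand) ranged from 102 to 111 CPM in vehicle and from 104 to 110.2 CPM in ISRIB libraries. Klf5 (ENSMUSG00000005148, chromosome 14, 99298691 to 99315036, plus strand) ranged from 58.1 to 68.7 CPM and from 60.9 to 67.2 CPM. The log2 fold changes of Foxa1, Foxa2 and Klf5 were -0.01 (95% interval -0.15 to 0.13), -0.03 (-0.13 to 0.07) and 0.02 (-0.11 to 0.14). Their edgeR adjusted p-values were 0.964, 0.864 and 0.936, with groups that overlapped in each case. On a level basis, the ISRIB libraries placed Irx1 first, at 364 ± 13.8 CPM per kilobase, and Cebpa next, at 300.4 ± 31.1 (SD, n = 4 each).

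After bleomycin, 4 of the 10 genes fell and none rose at an adjusted p under 0.05 (edgeR quasi-likelihood F test, Benjamini-Hochberg over 11223 genes). Nkx2-1, Foxa1, Gata6 and Irx2 were the genes that fell. Over all genes tested, 20.5% were called in either direction, with 9.31% called lower and 11.2% called higher. No member was called higher by edgeR, DESeq2 or limma-voom. At an unadjusted p under 0.05 in edgeR, none of the 10 was higher and 6 were lower. In either direction, 3740 of the 11223 genes tested had such a p. The members' median log2 fold change was -0.36, against 0.0026 for all genes tested, whose median size was 0.31. Naive and bleomycin libraries did not overlap for 3 of 10 members, Nkx2-1, Foxa1 and Foxa2, all lower after bleomycin, and for 19.7% of all genes tested (9.35% lower and 10.4% higher). The ribosomal RNA-like share was 20.2% to 29.2% of reads in naive and 15.7% to 22.9% in bleomycin libraries, and genes detected numbered 17108 to 19763 in naive and 13940 to 17112 in bleomycin libraries. With ribosomal RNA-like and mitochondrial genes left out, Nkx2-1 (-0.45), Foxa1 (-0.57), Gata6 (-0.45) and Irx2 (-0.42) were still called, and the part of detected gene number in these values was not tested.

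Nkx2-1 had 351.5, 371, 378 and 385 CPM in naive 1 to 4 and 284, 256, 285, 223 and 300.4 CPM in bleomycin 1 to 5. All 5 bleomycin libraries lay below all 4 naive libraries, and bleomycin 4 was lowest. The mean went from 371 ± 14.3 CPM (SD, n = 4) to 269.9 ± 30.5 CPM (SD, n = 5), a fold of 0.728 (log2 fold change -0.46, SE 0.11, edgeR adjusted p = 0.00685). Foxa1 had 76.8, 91.7, 87.7 and 86.4 CPM in naive 1 to 4 and 50.0, 42.2, 59.3, 67.1 and 68.4 CPM in bleomycin 1 to 5. Here too the groups were apart, with bleomycin 2 lowest. Foxa1 fell to 0.669 of its naive level (log2 fold change -0.58, SE 0.14, edgeR adjusted p = 0.00729). Both calls held under all 16 alternative settings, with the largest adjusted p at 0.0299 for Nkx2-1 and 0.0307 for Foxa1.

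The windows before the start sites of these 2 genes, the members that fell under every setting, are chr12:56536909-56537158 for Nkx2-1 and chr12:57546112-57546361 for Foxa1, both on the minus strand and written 5′ to 3′. Capitals mark the forkhead motif TGTTTAC, which in Foxa1 reads on the other strand.
Nkx2-1: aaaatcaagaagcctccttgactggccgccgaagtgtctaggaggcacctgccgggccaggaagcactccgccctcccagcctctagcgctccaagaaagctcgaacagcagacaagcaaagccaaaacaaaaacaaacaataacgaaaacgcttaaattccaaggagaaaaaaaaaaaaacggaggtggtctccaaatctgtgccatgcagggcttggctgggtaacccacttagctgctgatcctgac
Foxa1: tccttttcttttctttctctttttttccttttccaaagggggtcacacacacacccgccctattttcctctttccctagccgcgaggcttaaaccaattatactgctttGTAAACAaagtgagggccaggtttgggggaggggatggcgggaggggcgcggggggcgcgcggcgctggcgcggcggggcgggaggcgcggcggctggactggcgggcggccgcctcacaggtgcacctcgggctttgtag
The Foxa1 window holds 1 match, 141 to 135 bases before the start site, and the Nkx2-1 window holds none of the 8 motifs. GC content was 50.8% with 9 CpG in Nkx2-1 and 62.0% with 21 CpG in Foxa1. The GENCODE model of Foxa1 extends further upstream than this RefSeq start, to 57546916, so the whole Foxa1 window lies inside that model.

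Foxa2, the paralog of Foxa1, had 78.2, 66.0, 74.5 and 77.5 CPM in naive 1 to 4 and 60.8, 54.9, 65.7, 61.9 and 59.1 CPM in bleomycin 1 to 5. The groups did not overlap, though bleomycin 3 and naive 2 almost met. The log2 fold change was -0.29 (SE 0.11, 95% interval -0.52 to -0.06) and was not called (edgeR adjusted p = 0.0821). Gata6 had 42.6, 50.6, 48.0 and 35.5 CPM in naive 1 to 4 and 31.7, 34.1, 36.1, 30.3 and 29.3 CPM in bleomycin 1 to 5, so that naive 4 lay inside the bleomycin range. Its log2 fold change was -0.45 (SE 0.15, edgeR adjusted p = 0.0342). The adjusted p of Gata6 rose to 0.0653, 0.136 and 0.108 without naive 1, 2 and 3, to 0.0777 without bleomycin 5 and to 0.0871 with no filter on low counts.

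The Iroquois genes gave different values from one another. Irx2 had 203, 196, 229 and 238 CPM in naive 1 to 4 and 148, 114, 162, 176 and 206 CPM in bleomycin 1 to 5. Bleomycin 5 lay within the naive range and the others below it. Irx2 fell by 0.43 on the log2 scale (SE 0.14, edgeR adjusted p = 0.0416), and the call was lost without any 1 of the 4 naive libraries or of bleomycin 1, 2 and 3, with adjusted p from 0.0558 to 0.134. Irx1 had 472, 419.8, 474 and 548 CPM in naive 1 to 4 and 497, 426, 494, 656 and 596 CPM in bleomycin 1 to 5, with overlapping groups. Its log2 fold change was 0.16 (95% interval -0.10 to 0.42, edgeR adjusted p = 0.441). Irx3 had 226, 188, 208 and 217 CPM in naive 1 to 4 and 165, 232, 225, 338 and 205 CPM in bleomycin 1 to 5, with bleomycin 4 far above and bleomycin 1 below all others. The log2 fold change of Irx3 was 0.15 (95% interval -0.16 to 0.46, edgeR adjusted p = 0.550) and was -0.013 without bleomycin 4.

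**Figure D3:**
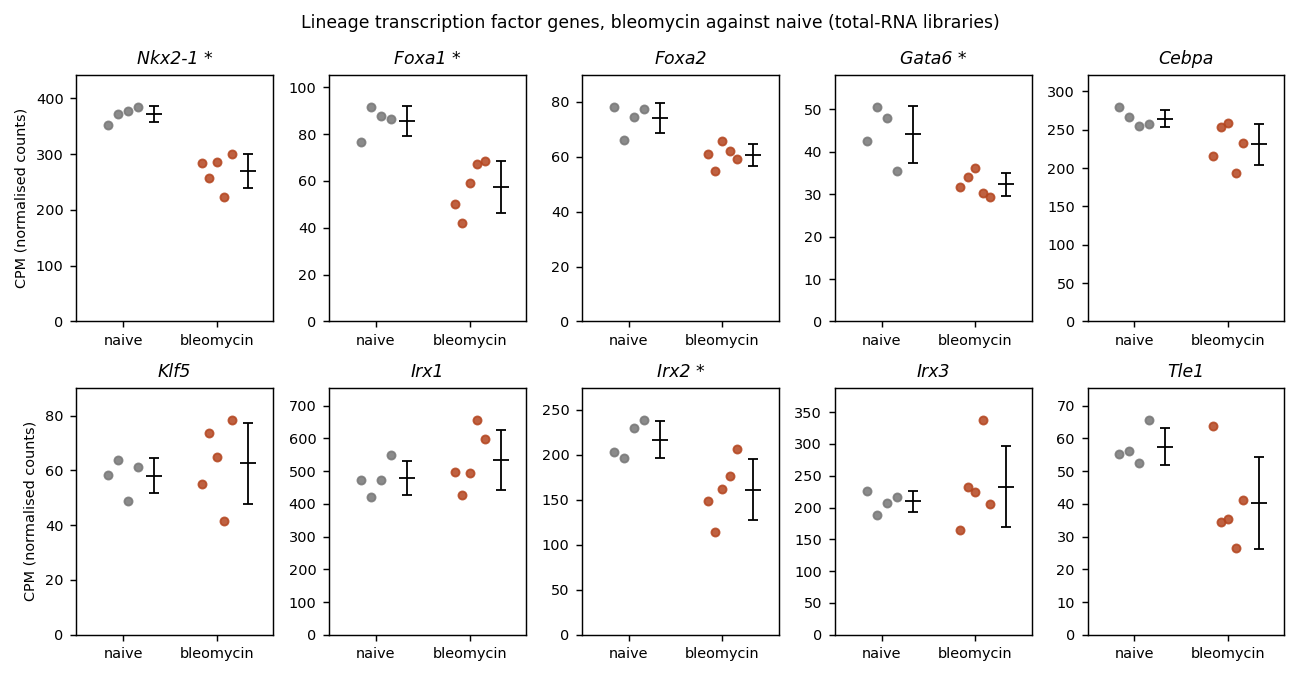
CPM of each of the 10 genes in the 4 naive and 5 bleomycin libraries, each panel with its own linear axis from 0, with a point for each library, the mean and 1 SD beside the points, and an asterisk for genes called at an adjusted p under 0.05. The bleomycin points lie wholly below the naive points for Nkx2-1, Foxa1 and Foxa2, and the Irx3 panel shows bleomycin 4 at 338 CPM.

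Tle1 had 55.3, 56.2, 52.5 and 65.6 CPM in naive 1 to 4 and 63.7, 34.3, 35.3, 26.6 and 41.2 CPM in bleomycin 1 to 5. Bleomycin 1 lay inside the naive range and the other 4 below it. The log2 fold change was -0.52 (SE 0.19) with an edgeR adjusted p of 0.0633, and -0.73 with an adjusted p of 0.00206 when bleomycin 1 was left out. It also passed the threshold in limma-voom (0.0340) and with no filter on low counts (0.0200). Cebpa ranged from 255 to 280.1 CPM in naive and from 193 to 259 CPM in bleomycin libraries (log2 fold change -0.19, 95% interval -0.41 to 0.03, edgeR adjusted p = 0.241). Klf5 ranged from 48.9 to 63.7 CPM and from 41.5 to 78.4 CPM (log2 fold change 0.12, 95% interval -0.20 to 0.44, edgeR adjusted p = 0.661). Spread among bleomycin libraries differed by gene, with coefficients of variation of 35.1% for Tle1, 27.5% for Irx3, 23.7% for Klf5 and 6.54% for Foxa2.

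**Figure D4:**
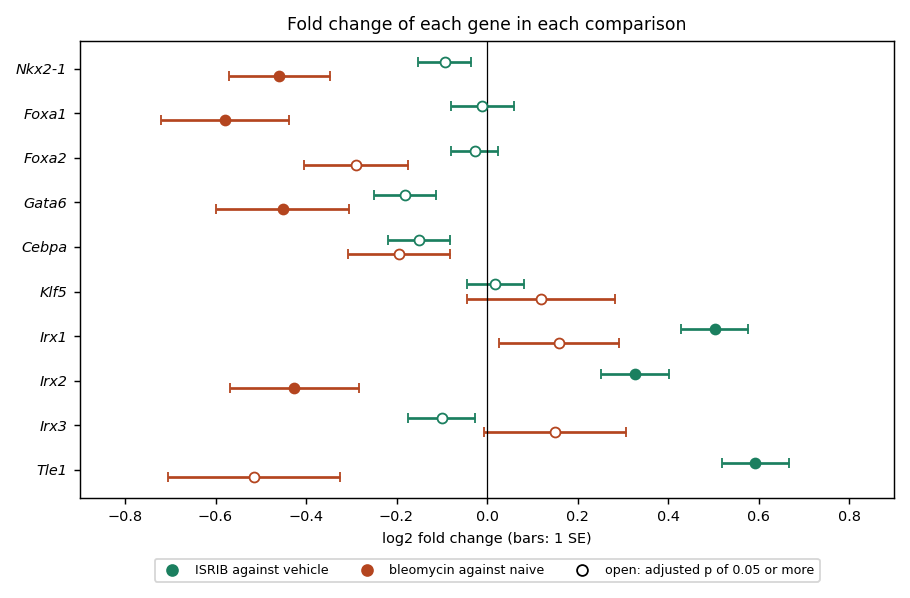
Log2 fold change of each of the 10 genes after ISRIB against vehicle and after bleomycin against naive, with bars of 1 SE, filled points for genes called at an adjusted p under 0.05 and open points for the others. Tle1, at 0.59 and -0.52, and Irx2, at 0.33 and -0.43, have opposite signs in the 2 experiments, though Tle1 is called only after ISRIB.

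Set side by side, Irx2 rose after ISRIB (0.33) and fell after bleomycin (-0.43), each called in its own kit. Neither call held under every alternative setting, with 11 of 15 after ISRIB and 9 of 16 after bleomycin. No test spans the experiments, and the difference between them was not tested. In the bleomycin libraries the ranges of Nkx2-1 (94.97 ± 10.7), Cebpa (87.6 ± 10.3) and Irx3 (84.3 ± 23.2), in CPM per kilobase (SD, n = 5), overlapped from each gene to the next, where in naive libraries Nkx2-1 was above Cebpa and Cebpa above Irx3. Irx1 stayed first, at 204 ± 34.8 CPM per kilobase.

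Ratios between paralogs within a library do not depend on how libraries are scaled. The pairs were chosen with earlier results of these data known. The log2 ratio of Irx1 to Irx2 counts was 1.22, 1.10, 1.05 and 1.20 in naive 1 to 4 and 1.74, 1.91, 1.61, 1.90 and 1.53 in bleomycin 1 to 5. All bleomycin libraries had the higher ratio. On a linear scale the ratio went from 2.20 to 3.33, a difference of 0.60 in log2. The two-sided exact permutation p was 0.0159, the smallest that 4 against 5 libraries can give, and 0.0476 when adjusted over 6 tests. After ISRIB the same ratio went from 1.30 ± 0.16 to 1.48 ± 0.11 (SD, n = 4 each) with overlapping groups (exact permutation p = 0.143, adjusted 0.171).

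Cebpa was also read against Cebpb, its paralog that responds to inflammation and stress. Their log2 ratio was 3.63, 3.36, 3.46 and 3.48 in naive 1 to 4 and 2.76, 2.96, 2.90, 2.99 and 2.62 in bleomycin 1 to 5. The ratio was lower in every bleomycin library, at 7.19 against 11.2 on a linear scale (log2 difference -0.64, exact permutation p = 0.0159, adjusted 0.0476). With any 1 library left out the adjusted p of this ratio and of the Irx ratio was 0.0571 to 0.0714, in a design where fewer splits exist. In the ISRIB experiment it went from 4.47 ± 0.18 to 4.01 ± 0.11 (SD, n = 4 each) with groups apart (exact permutation p = 0.0286, the smallest possible there, adjusted 0.0571). Cebpb itself had log2 fold changes of 0.33 after ISRIB and 0.45 after bleomycin, neither called (edgeR adjusted p = 0.0958 and 0.0569). The log2 ratio of Foxa1 to Foxa2 differed by 0.01 after ISRIB (exact permutation p = 0.943) and by -0.31 after bleomycin (p = 0.0952, adjusted 0.143).

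**Figure D5:**
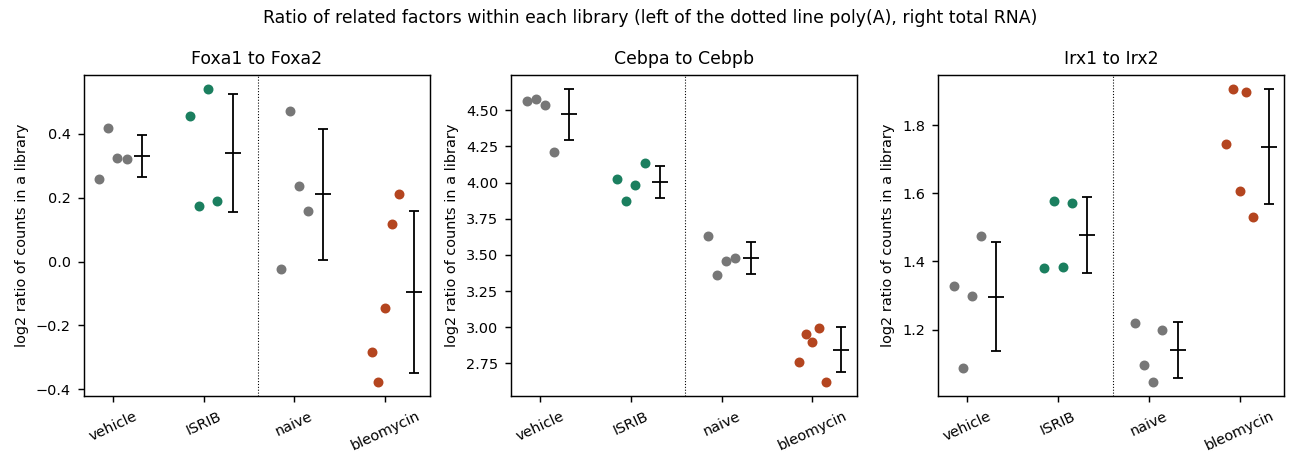
Log2 ratio of counts of 3 paralog pairs within each library, by group, with a point for each library and the mean and 1 SD beside the points, poly(A) libraries left and total-RNA libraries right of the dotted line. The bleomycin libraries lie apart from the naive libraries for Cebpa to Cebpb (lower) and Irx1 to Irx2 (higher).

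Among 19 paralogs of the members, 13 passed the filter in each experiment. Over all genes tested after ISRIB, 2.20% were called, the median log2 fold change was -0.0001 and 6023 of 12054 were positive. The paralogs had a median of 0.26, and 12 of the 13 had a positive value. By edgeR, 2 paralogs were called higher after ISRIB and 0 lower. The 2 were Tle4, a Groucho corepressor that went from 29.7 to 39.2 CPM (0.40, adjusted p = 0.0264), and Cebpd, a C/EBP factor of the acute phase that went from 86.5 to 112 CPM (0.37, adjusted p = 0.0319). Tle4 was not called without any 1 of vehicle 1, 3 and 4 or ISRIB 1, 3 and 4 (adjusted p from 0.0502 to 0.0772), nor Cebpd without vehicle 1 or 3 or ISRIB 3 or 4 (0.0775 to 0.120), and with no filter on low counts 6 paralogs were called higher. No paralog was lower at an unadjusted p under 0.05, and Tle2 and Tle3 had values of 0.26 and 0.31 that were not called. After bleomycin 2 paralogs were called higher and 3 lower, with a median of -0.05. Tle2 fell from 145 to 70.9 CPM (log2 fold change -1.03, SE 0.14, edgeR adjusted p = 5.62e-05) and Tle4 fell from 33.8 to 18.3 CPM (-0.90, adjusted p = 0.00129). Tle3 rose from 42.7 to 77.2 CPM (0.84, adjusted p = 0.00451). Klf9, a Krüppel-like factor that responds to glucocorticoids, fell from 69.2 to 47.7 CPM (-0.53, adjusted p = 0.00693). The Groucho family members therefore did not move together in that experiment.

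Of 28 other regulators of lung epithelium, 24 were tested after ISRIB, where 0 were called higher and 6 lower, with a median log2 fold change of -0.09. By edgeR, 3 of them were higher at an unadjusted p under 0.05, and DESeq2 and limma-voom also called 6 lower. Id2, an inhibitor of helix-loop-helix factors, went from 227 to 153 CPM (-0.57, edgeR adjusted p = 0.00309). Tfcp2l1, a grainyhead-related factor, changed by -0.35 (0.0176), and Ehf, an epithelial ETS factor, by -0.32 (0.00961). Tfcp2l1 was not called without vehicle 2 (0.0668). After bleomycin 23 were tested, 4 called higher and 5 lower, with a median of -0.04. Tfcp2l1 went from 412 to 225 CPM (-0.87, edgeR adjusted p = 6.28e-05). Those called higher included Id1, another helix-loop-helix inhibitor (1.61), Hopx, a homeodomain-only protein made by alveolar type 1 cells (1.27), and Foxj1, the factor of ciliated cells (2.27, from 3.37 ± 0.95 CPM, SD, n = 4, to 16.3 ± 13.9 CPM, SD, n = 5). The value of Foxj1 was 1.65 without bleomycin 2 (edgeR adjusted p = 0.0119), and limma-voom did not call it (adjusted p = 0.0987).

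A list of 18 genes of AT2 cells, all tested, was read beside the members. Whether the members act on these genes was not tested, and Etv5 is also among the other regulators above. After ISRIB 0 were called higher and 2 lower, Scd1, a fatty acid desaturase (-0.32), and Etv5, an ETS factor (-0.28), with a list median of -0.04. Scd1 was not called without vehicle 2 (adjusted p = 0.0713) or vehicle 3 (0.0537), while DESeq2 called 4 of the list lower. Counts at an unadjusted p under 0.05 were 0 higher and 5 lower. After bleomycin 3 were called higher and 2 lower, with a median of -0.10. Fabp5, a fatty acid binding protein, changed by -0.89, Muc1, a surface mucin, by 0.68, and Sftpd, surfactant protein D, by 0.58, not called without naive 2 (adjusted p = 0.0525). DESeq2 called 9 of the 18 and limma-voom 8, and 3 were called without naive 1, 2 or 4. The 7 AT2 identity markers gave 0 calls in either experiment, with 0 at an unadjusted p under 0.05 after ISRIB and 1 higher and 2 lower after bleomycin (DESeq2 called 3 and limma-voom 2 there).

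Genes of alveolar type 1 cells, the flat cells into which AT2 cells differentiate, were called higher for 8 of 11 tested after bleomycin and lower for 0, with a median log2 fold change of 0.85. Pdpn (3.81), Akap5 (2.09) and Hopx (1.27) had the largest values, Pdpn from a naive mean of only 1.34 CPM. Of 14 genes of the transitional state between these cell types, 14 were called higher after bleomycin, with a median of 1.46, led by Fn1, an extracellular matrix protein (4.72), Cldn4, a claudin (4.28), and Cdkn1a, an inhibitor of the cell cycle (2.29). Limma-voom called 13 of them, all but Fn1 (adjusted p = 0.0652). Naive means were only 2.33 CPM for Fn1 and 0.52 CPM for Cldn4. Genes this scarce in naive libraries, Pdpn among them, could pass the count filter through the bleomycin libraries alone. Calls of higher are favoured for such genes, and their fold changes start near the floor. Fn1 stood at 59.9 ± 65.0 CPM (SD, n = 5) after bleomycin. Without bleomycin 2, the library with the most fibroblast marker RNA, the log2 fold changes were 3.81 for Fn1 and 3.66 for Cldn4. After ISRIB no type 1 gene was called by edgeR or limma-voom, 1 was called lower by DESeq2 and 3 were lower at an unadjusted p under 0.05, while 3 transitional genes fell, Sprr1a (-0.70), Hbegf (-0.64) and Krt19 (-0.40). Sprr1a was not called without vehicle 1, 2 or 3 or ISRIB 1 (0.0573 to 0.0823), nor Krt19 without vehicle 1 or ISRIB 3 (0.0607 and 0.0519).

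Markers of other cell types were summed beside these results. The 8 fibroblast markers had 3.87 to 10.1 CPM in naive and 17.5 to 115 CPM in bleomycin libraries, with bleomycin 2 highest. Only 3 passed the count filter, and all 3 were called higher (Col1a1, Col1a2 and Col3a1). Their naive means were 1.35, 1.25 and 2.93 CPM, so they could pass that filter through the bleomycin libraries alone, which favours such calls. Lum was at 0 in all total-RNA libraries, and Tcf21 was at 0 in all bleomycin libraries. The 7 endothelial markers had 16.7 to 26.2 and 17.7 to 73.5 CPM, with 2 of 4 tested called higher. Limma-voom called 1 fibroblast marker, 0 endothelial and 0 airway markers after bleomycin. The 9 macrophage and monocyte markers had 6.62 to 10.1 and 6.14 to 11.6 CPM, and Marco was at 0 in all total-RNA libraries. Lymphocyte markers summed to at most 1.68 CPM in the total-RNA libraries. Airway markers ranged from 486 to 961 CPM in naive and from 562 to 998 CPM in bleomycin libraries, and from 3917 to 4373 CPM in vehicle and 2435 to 4239 CPM in ISRIB libraries. Of 7 airway markers tested in each experiment, 1 was called lower after ISRIB, Tppp3, a gene of ciliated cells (-0.43, edgeR adjusted p = 0.00384), and 1 higher after bleomycin, Foxj1. The part of these cells in the members' results was not tested. Without bleomycin 2, the library with the most fibroblast marker RNA, the log2 fold changes were -0.44 for Nkx2-1 (edgeR adjusted p = 0.0111), -0.48 for Foxa1 (0.0127), -0.47 for Gata6 (0.0408) and -0.32 for Irx2 (0.0771, no longer called).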

How the data were processed

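The authors deposited unnormalised read counts, a table for each library kit. That they are raw counts was judged from the columns, which hold whole numbers and differ in their totals. Per the submitters' processing notes, bcl2fastq 2.19.1, FastQC, Trimmomatic 0.36, STAR 2.6.0 and HTSeq 0.11.2 were used with mm10, annotation and strand setting not given in the sources used here. Reads from overlapping opposite-strand exons may not be told apart. Gene IDs were looked up in GENCODE M21 (GRCm38).

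Libraries were grouped by treatment and kit from the labels. Each comparison (4 against 4 poly(A), 5 against 4 total-RNA libraries) was fitted on its own table in edgeR 4.0.16 (R 4.3.3) with filterByExpr (minimum count 10, minimum total 15), TMM scaling, group as the only term and the two-sided quasi-likelihood F test, adjusted by Benjamini-Hochberg over all genes tested. Calls needed an adjusted p under 0.05. CPM were computed here from filtered counts and effective library sizes. The SE is the size of the log2 fold change, fitted without a prior count, divided by the root of F. The 95% intervals reach 1.96 SE to either side. This normal value ignores the finite degrees of freedom of the F test, so the intervals are somewhat narrow. Paralog ratios used counts plus 0.5 and two-sided exact permutation tests. Low depth in the total-RNA libraries limits scarce genes. Among replicates the chi-square per degree of freedom was at least 3.52, so none was counted as a repeat. In the ISRIB group it was 3.52 between libraries 1 and 3 and 4.39 between 2 and 4, but 7.78 to 9.03 across these pairs. The labels name no batch within the group, and the part of this split in the results was not tested.

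Alternatives were other scalings, no filter, DESeq2 1.42.0, limma-voom (3.58.1), a replicate block, leaving out ribosomal RNA-like and mitochondrial genes, leaving out each library, and a pseudocount of 1 for ratios. Scripts were tested on simulated data. The members, lists, motifs and tests were chosen with earlier results of these data known. Beside the members, the text names up to 4 called genes of largest fold change for paralogs and other regulators, up to 3 for the type 2, type 1 and transitional lists, the genes in ratios, and the 3 genes nearest in profile to the member of lowest p. Other genes named, such as Tle2 and Tle3 after ISRIB, were chosen after their values were seen. Promoter windows are RefSeq's (GRCm38.p6), less the bases after the start site. A gene that the naming rule selects is not reported here.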

Additional observations from a re-analysis of the deposited data

Results flagged for a closer look

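Each gene's CPM in each group of 4 or 5 libraries, and each paralog ratio, was checked for a library far from its group, by the gap to the nearest library relative to the group's range. Of 52 groups checked, 3 held such a library, and chance alone gives about 1 in 20. Foxa2 was highest in ISRIB 2, at 110.2 CPM, where the other ISRIB libraries had 103.6 to 103.7 CPM. Irx3 was also highest in ISRIB 2, at 338 CPM, against 292 to 299 CPM in the others. The log2 ratio of Cebpa to Cebpb was lowest in vehicle 4, at 4.21, where the other vehicle libraries had 4.54 to 4.58.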

How the results depend on the processing

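Of the members' log2 fold changes under the alternatives, 141 kept direction and side of the threshold after ISRIB, 4 lost the call and 5 changed sign. After bleomycin 142 kept both, 13 lost the call, 4 gained one and 1 changed sign, and the causes were not tested. Sign changes came when 1 library was left out of genes near 0. Over those settings Foxa1 after ISRIB ran from -0.069 to 0.046, Klf5 after ISRIB from -0.023 to 0.055, Irx3 after bleomycin from -0.013 to 0.25 and the log2 ratio of Foxa1 to Foxa2 after ISRIB from -0.056 to 0.065. Genes called after ISRIB numbered 265, against 648 with no filter and 408 with DESeq2, and 86 (without vehicle 1) to 269 with 1 library left out. The counts were 102 without vehicle 2 and 159 without ISRIB 4. After bleomycin they numbered 2304, with 1554 to 2584 when 1 library was left out. Members called with 1 library left out were 2 to 3 after ISRIB and 2 to 4 after bleomycin, where 2 remained, Nkx2-1 and Foxa1, without naive 1, 2 or 3. The called ratios after bleomycin ran from -0.68 to -0.58 (Cebpa to Cebpb) and from 0.55 to 0.65 (Irx1 to Irx2) in those settings, with adjusted p from 0.0571 to 0.0714. Libraries share replicate numbers across groups, but whether equal numbers share a mouse, batch or day is not stated. Deviations of same-numbered libraries had correlations of -0.109 to 0.085. With so few libraries these values cannot exclude a pairing, and the main fits used none. With the replicate block 277 genes and 3 members were called after ISRIB and 2187 genes and 4 members after bleomycin. There Gata6 had an adjusted p of 0.0855 and Tle1 of 0.0432, and Tle4 had 0.0503 after ISRIB. All members passed the count filter, but some had few reads in the total-RNA libraries, down to 86 counts for Tle1 and 98 for Gata6. The part of depth in the members' results was not tested.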

Other observations

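Several close relatives of the members were at or near 0 reads in these cells. In the poly(A) libraries Irx4, Irx6 and Gata4 had 0 counts in all 8, Gata5 had 0 to 2, and Foxa3, the third forkhead gene of its group, had 4 to 11. In the total-RNA libraries Irx4 had 0 to 8 counts, Gata4 0 to 4 and Foxa3 0 to 7. None of these passed the filter on low counts. Irx5, the neighbour of Irx3 in its gene cluster, did pass it and had log2 fold changes of -0.04 after ISRIB and -0.21 after bleomycin, neither called by edgeR.

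The genes whose centred log2 CPM profile lay closest to that of Tle1 over the 8 poly(A) libraries, among 9346 compared, were Dusp16, a phosphatase of MAP kinases (distance 0.200, log2 fold change 0.53), Ddi2, a protease (0.217, 0.49), and Arsg, a lysosomal sulfatase (0.219, 0.62, not called, edgeR adjusted p = 0.0678). Closest to Nkx2-1 over the 9 total-RNA libraries, among 9327, were Tiparp, a mono-ADP-ribosyltransferase (0.210, -0.51), Brpf1, a subunit of histone acetyltransferases (0.216, -0.37, not called, edgeR adjusted p = 0.0505), and Smurf2, a ubiquitin ligase (0.258, -0.45). Distances are Euclidean in log2 units and describe these libraries only.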
